A study of Mus musculus with 7 samples.

Results

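The genes described here encode the subunits of the 3 nuclear RNA polymerases. They were chosen by symbol alone, as Polr1, Polr2 or Polr3 followed by a letter, without pseudogenes, which gave 28 genes of the 55367 gene symbols in the deposited tables. Of these, 3 encode subunits of RNA polymerase I (Pol I), 8 of Pol II and 10 of Pol III; 2 encode subunits shared by Pol I and III, and 5 encode subunits shared by all. Messenger RNA was sequenced in 7 libraries of G1E-ER4, an established mouse erythroid progenitor line that lacks its own GATA1 and carries GATA1 fused to an estrogen receptor domain, so that estradiol starts maturation. The groups were 1 library of undifferentiated cells at 0 h without estradiol or chelator, 3 control libraries after 24 h with 100 nM β-estradiol, and 3 libraries after 24 h with 100 nM β-estradiol and 50 µM DTPA, a metal chelator given from the start to restrict zinc. All cultures received erythropoietin and Kit ligand, and all came from the same line, so the replicates, called biological by the labels, are not separate animals. DTPA also binds metals other than zinc, and the 0 h group has no replicate.

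Pol I makes the large ribosomal RNA precursor in the nucleolus, Pol II makes messenger RNA, and Pol III makes transfer RNA, the small ribosomal RNA and other short RNAs. Each is built from 2 large catalytic subunits that form the active site, small subunits of which several are common to all, and a stalk. Pol I and Pol III also hold arms of their own that act in steps such as initiation. Structures of these enzymes hold zinc in both large subunits and in several small ones. In maturing erythroid cells, ribosome production and cell division wind down while messenger RNA of globin and other red cell genes is still made.

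Levels are given as TPM, which corrects for transcript length and for depth. TPM is a share of a fixed total, so comparisons between libraries also depend on what other genes do. Comparisons between genes rest on the authors' gene lengths, which are not given. Changes are given on the log2 scale of TPM + 1 and are called log2 changes. Estimated depth was 17.58 to 21.19 M reads per library. All 28 genes passed the filter on low values in every comparison, and their estimated reads per library ran from 27 for Polr2k to 7133 for Polr2a. Of 10 erythroid markers, 7 were higher in the controls than at 0 h. All 10 summed to 7098 TPM at 0 h, 23455 to 25908 TPM in the controls and 21955 to 34531 TPM under DTPA. The sum hides a split: against control, DTPA left 6 of the 10 lower and 2 higher (limma, adjusted p under 0.05). Their median log2 change was -0.36. Slc4a1 (-3.38) and Gata1 (-1.28) were among the lower ones, and Hbb-bt (2.12) and Alas2 (0.39) were the higher ones. The line lacks its own GATA1 and carries the fused form, so Gata1 cannot be read as an endogenous marker here. Gata1 made up 2969 of the 7098 TPM at 0 h. Hbb-bt varied widely among the DTPA libraries, with a lowest value of 4380 TPM and a highest of 16392 TPM. Markers of other lineages were low: 5 of 6 lymphoid markers, Cd3e, Cd4, Cd8a and Ms4a1 among them, were listed at 0 in all libraries, and 7 of 10 myeloid and mast cell markers were under 1 TPM in all, with Mpo, Lyz2, Itgam and Mcpt8 at 0. The lymphoid sum was Cd79a alone, which reached 2.82 TPM at most and was higher under DTPA (2.56 to 2.82 TPM) than in the controls (0.23 to 1.06 TPM). In sum the myeloid list was at 15.6 TPM at 0 h, 3.41 to 3.86 TPM in the controls and 3.62 to 5.8 TPM under DTPA. Within it, Hdc was higher under DTPA (mean 2.56 TPM, 0.483 TPM in the controls) and Cd68 lower (1.66 TPM, 2.78 TPM in the controls). The 8 megakaryocyte markers summed to 39.5 TPM at 0 h, 9.08 to 12.7 TPM in the controls and 42.4 to 51.5 TPM under DTPA, with Vwf and Ppbp at 0. The 3 that could be tested between DTPA and control were all higher under DTPA. These were Itgb3, Gp1ba and Gp9, with log2 changes of 2.36, 1.76 and 0.99. The progenitor markers Kit, Gata2 and Myb fell with differentiation and were higher under DTPA than in the controls, from 39.1 to 42.0 TPM in sum to between 77.4 and 86.3 TPM, and Cd34 was at 0. Summed proliferation markers were 3029 TPM at 0 h, 1489 to 1601 TPM in the controls and 221 to 232 TPM under DTPA. All 10 were lower under DTPA than in the controls. Against 0 h, 6 of the 10 were lower in the controls (limma, adjusted p under 0.05 and a log2 change of at least 1 in size). The other 4 did not pass: Mki67, Top2a and Ccnb1 were at 107%, 111% and 150% of the 0 h level, and Birc5 at 81.5%. The part of these shifts in the results on the polymerase genes was not tested, and in bulk libraries fewer cells of a type and less RNA per cell cannot be told apart.

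**Figure D1:**
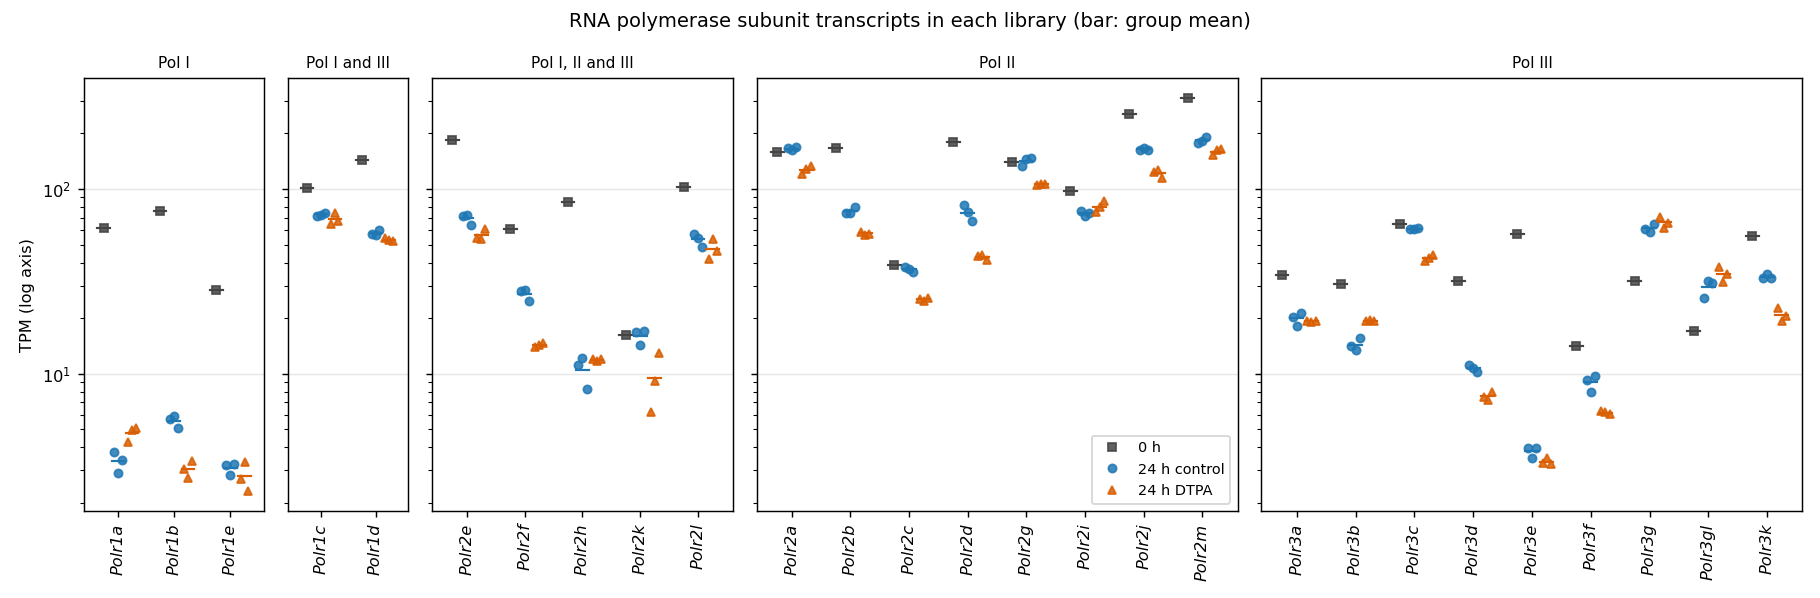
TPM (log axis) of the subunit genes in each library, grouped by polymerase; squares are the 0 h library, circles the 3 controls, triangles the 3 DTPA libraries, and bars the group means. The Pol I genes Polr1a, Polr1b and Polr1e, and Polr3e of Pol III, drop from between 28.5 and 75.9 TPM at 0 h to under 6 TPM in all 24 h libraries, while Polr3g and Polr3gl lie higher at 24 h.

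The first question was how the subunit transcripts moved as the cells matured under control zinc. The 3 genes among the 28 that are used by Pol I alone fell steeply, as did Polr3e of Pol III and the shared subunit Polr2h. Pol I subunits under other symbols, given below, had log2 changes of -2.95 (Cd3eap), -1.45 (Twistnb) and -0.29 (Znrd1). The core Pol II gene Polr2a did not pass, and the remaining Pol III genes divided. Against the 0 h library, 13 of 28 genes were lower, or 46.4%, where 24.3% of all 11906 tested genes were lower (limma, adjusted p under 0.05 and a log2 change of at least 1 in size). None was higher, against 15.1% of all genes (39.4% were called in either direction), while 2 were higher at an unadjusted p under 0.05. Without the minimum fold, 21 were lower and 2 higher, and the same rule called 43.6% of all genes lower and 30.9% higher. The median log2 change was -0.84 over the 28 genes and -0.22 over all tested genes. Each test sets 3 controls against a single 0 h library, which was assumed to vary like the other groups. Median-of-ratios scaling called 10 of the genes lower and 1 higher, and quantile normalization 12 and 2; these scalings moved the median of all genes to -0.06 and -0.01, and the split of all calls from 1794 higher and 2894 lower to 2061 and 2435 and to 2344 and 2333.

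All 3 genes of Pol I alone among the 28 fell. Polr1a, the largest catalytic subunit, stood at 61.5 TPM at 0 h and at 3.76, 2.92 and 3.40 TPM in the controls, 5.46% of the 0 h level, which is a log2 change of -3.85 with a standard error of 0.146 (limma, adjusted p = 4.32e-06). Polr1b, which forms the active site with it, stood at 75.9 TPM at 0 h and at 5.72, 5.94 and 5.10 TPM in the controls, for a log2 change of -3.55 ± 0.129 (adjusted p = 3.7e-06). Polr1e, one of a pair of Pol I subunits that aid initiation and elongation, stood at 28.5 TPM and then at 3.21, 2.82 and 3.25 TPM, for a log2 change of -2.85 ± 0.168 (adjusted p = 2.3e-05). No control value of these genes came near the 0 h value, and the fall of Polr1a ranked at the percentile 0.739 of all tested log2 changes. The 2 subunits shared by Pol I and III, which start the assembly of both enzymes, had smaller log2 changes: Polr1d was at 40.5% of its 0 h level (log2 change -1.29, adjusted p = 5.35e-06) and Polr1c at 71.7% (-0.48, adjusted p = 0.00203, short of the minimum fold).

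Of the 5 subunits common to all polymerases, 3 fell. Polr2h stood apart, at 84.6 TPM at 0 h and 11.1, 12.2 and 8.28 TPM in the controls, for a log2 change of -2.91 ± 0.189 (adjusted p = 3.4e-05). Polr2e and Polr2f, which sit at the jaws and near the base of the clamp of each enzyme, fell to 37.8% and 44.4% of the 0 h level, with log2 changes of -1.39 and -1.14, the latter -0.99 and short of the minimum under median-of-ratios scaling. Polr2l, a small zinc-binding assembly subunit, was at 52.3% (log2 change -0.93, short of the minimum fold). Polr2k, another small zinc-binding subunit, was at 16.3 TPM at 0 h and between 14.3 and 17 TPM in the controls. Its log2 change of -0.02 had a wide 95% interval of -0.87 to 0.82; 60 estimated reads stood behind the 0 h value, and its sign changed with the scaling.

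Among the 8 Pol II genes, 2 fell. Polr2b, the second largest subunit, went from 166 TPM to 74.5, 74 and 80.3 TPM (log2 change -1.12, adjusted p = 1.3e-05, but -0.96 under median-of-ratios scaling), and the stalk subunit Polr2d from 180.05 TPM to 81.7, 74.8 and 66.7 TPM (-1.27, adjusted p = 1.05e-04). Polr2a, the largest subunit, whose tail of repeats coordinates RNA processing, was at 158 TPM at 0 h and at 166, 162 and 168 TPM in the controls. Its log2 change was 0.06 with a 95% interval of -0.08 to 0.21; under median-of-ratios scaling it was 0.22 (adjusted p = 0.00553), past the p-value and short of the minimum fold. The other stalk subunit, Polr2g, had a log2 change of 0.02, or 0.18 (adjusted p = 0.0349) under that scaling, and the assembly subunit Polr2c had -0.07, which turned to 0.09 under median-of-ratios scaling. The assembly subunit Polr2j, the fidelity subunit Polr2i and Polr2m, which encodes the Pol II-associated protein Gdown1, were at 64%, 75.6% and 59.2% of the 0 h level, all short of the minimum fold. Polr2a and Polr2b thus stood at similar levels at 0 h and apart at 24 h: the ratio of their TPM was 0.95 at 0 h and 2.23, 2.19 and 2.09 in the controls.

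Among the 10 Pol III genes, 4 fell. Polr3e stood at 56.8 TPM at 0 h and at 3.99, 3.52 and 3.98 TPM in the controls, for a log2 change of -3.58 ± 0.103 (adjusted p = 1.77e-06), close in size to those of Polr1a and Polr1b. Its partner in the initiation and termination arm, Polr3d, fell from 31.7 TPM to 11.1, 10.7 and 10.3 TPM (-1.49, adjusted p = 2.25e-05). The second largest subunit Polr3b fell to 47.1% of its 0 h level (-1.04). The call of Polr3b was lost under 5 of 16 alternatives, among them without control replicate 2, where it came just short of the minimum fold, and under median-of-ratios scaling (-0.88). The largest subunit Polr3a, the cleavage subunit Polr3k and Polr3f of the initiation trimer were at 58.7%, 60.5% and 63.8%, short of the minimum fold. Polr3c, of the same trimer, was at 94.4% (-0.08, but 0.08 under median-of-ratios scaling).

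The trimer's remaining place is taken by either of 2 related proteins, encoded by Polr3g and Polr3gl. The Polr3g form is known from stem cells and dividing cells, and the Polr3gl form from differentiated tissue. Polr3g was at 31.7 TPM at 0 h and at 60.8, 58.4 and 65 TPM in the controls, for a log2 change of 0.93 ± 0.0868 (adjusted p = 1.61e-04). Polr3gl was at 17.1 TPM at 0 h and at 25.8, 31.7 and 30.9 TPM, for a log2 change of 0.75 ± 0.145 (adjusted p = 0.0042). Both passed on the p-value and fell short of the minimum fold, which Polr3g reached under median-of-ratios scaling and quantile normalization and Polr3gl under quantile normalization. They were the 2 genes of the 28 with a rise at adjusted p under 0.05. The share of Polr3g in the TPM of the pair was 65% at 0 h and 70.2%, 64.8% and 67.8% in the controls, so the 0 h share lay within the range of the controls.

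**Figure D2:**
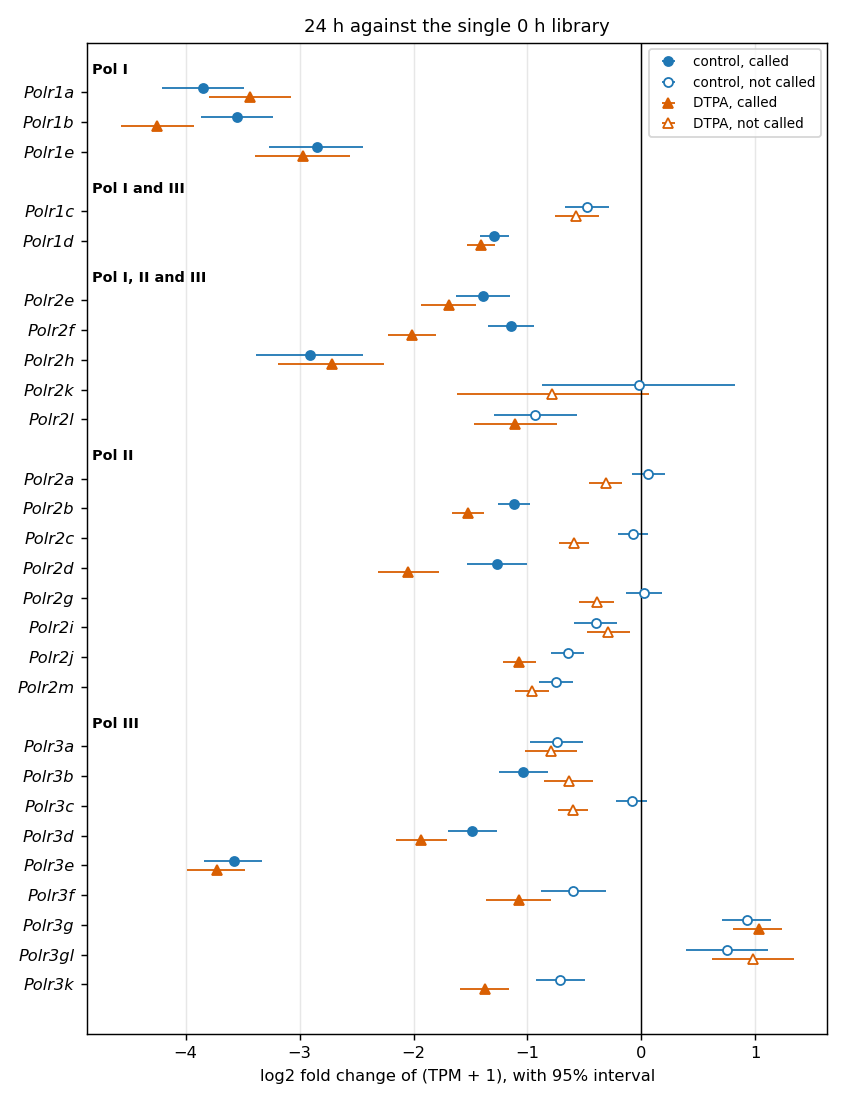
Log2 changes of log2(TPM + 1) at 24 h against the single 0 h library, with 95% intervals from limma, for the controls (circles) and the DTPA libraries (triangles); filled symbols pass adjusted p under 0.05 and a log2 change of at least 1 in size. The 3 Pol I genes, Polr2h and Polr3e lie below -2.5 in both, and Polr3g and Polr3gl lie above 0.

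The start regions of the genes with the steepest falls and of the pair that lay higher are shown to let a reader compare what stands there. RefSeq start windows (GRCm38.p6, the assembly also called mm10) were found for 22 of the 28 genes. Each stretch runs from 70 bases before to 30 bases after the start, on the gene's own strand, and capitals mark any of the motifs searched on both strands: the E-box CACGTG, the ETS factor core CCGGAAG, the box named after its letters CCAAT, the core promoter element TATAAA, the erythroid factor letters AGATAA and the palindromic NRF1 site. They lie at chr6:71908983-71909082 (plus strand), chr2:129100926-129101025 (plus), chr4:45018539-45018638 (plus), chr7:120917708-120917807 (plus), chr16:20717756-20717855 (plus, 1 of 2 starts in the table), chr13:81710984-81711083 (minus) and chr3:96594152-96594251 (minus).
Polr1a: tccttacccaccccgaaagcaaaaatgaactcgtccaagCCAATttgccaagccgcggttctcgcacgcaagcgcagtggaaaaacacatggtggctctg
Polr1b: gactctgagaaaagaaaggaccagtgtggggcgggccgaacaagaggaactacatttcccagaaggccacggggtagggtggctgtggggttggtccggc
Polr1e: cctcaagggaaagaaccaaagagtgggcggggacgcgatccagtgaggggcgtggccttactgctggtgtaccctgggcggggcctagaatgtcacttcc
Polr3e: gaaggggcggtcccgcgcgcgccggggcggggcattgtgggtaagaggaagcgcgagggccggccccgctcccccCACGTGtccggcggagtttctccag
Polr2h: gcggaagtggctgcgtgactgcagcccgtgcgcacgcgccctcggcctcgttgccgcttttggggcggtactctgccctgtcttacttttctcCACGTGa
Polr3g: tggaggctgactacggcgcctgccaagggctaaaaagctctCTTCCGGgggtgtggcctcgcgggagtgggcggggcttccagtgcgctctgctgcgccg
Polr3gl: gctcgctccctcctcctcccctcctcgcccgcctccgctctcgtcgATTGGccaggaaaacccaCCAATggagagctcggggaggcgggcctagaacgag

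None of the stretches held TATAAA, and GC content ran from 54% in Polr1a to 76% in Polr3e. Polr3e held an E-box just after the start, Polr3g an ETS core, Polr1a a single CCAAT box and Polr3gl that box on each strand. The Polr2h stretch also held an E-box after the start, but this start was picked from 2 because it held that motif. Polr1b and Polr1e held no whole motif. In Polr1e an ETS core began 26 bases from the start and ran past the end of the printed stretch. Over the full windows of 300 bases, the E-box was in 4 of the 22 genes, or 18.2%, against 8.09% of 27025 genes in the table, and the ETS core in 7, or 31.8%, against 9.93%. The CCAAT box was in 31.8% against 41.1%, TATAAA in 9.09% against 15.7%, AGATAA in 4.55% against 12.7%, and the NRF1 letters in none against 1.07%. The comparison genes were not limited to those expressed in these cells, and the differences were not tested. None of the windows of the 3 Pol I genes held the E-box, beside 8.09% of all genes, and 3 genes are too few to show a lack.

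The second question was what zinc restriction changed at 24 h. Pol II genes were lower almost throughout, several shared and Pol III genes were lower, and the 2 catalytic subunits of Pol I moved in opposite directions. Of 28 genes, 15 were lower and 2 higher under DTPA (limma, adjusted p under 0.05), or 53.6% and 7.14%, where 36.4% of all 11147 tested genes were lower and 21.7% higher, 58.1% in all. All DTPA libraries lay below all controls in 17 genes and above them in 2, where 40.3% and 24.7% of all genes were so separated. The median log2 change was -0.25 over the 28 genes and -0.09 over all, and no gene changed 2-fold, as 8.72% of all genes did with a call. With median-of-ratios scaling 14 were lower and 5 higher, and with quantile normalization 13 and 5; the split of all calls went from 2415 higher and 4059 lower to 3077 and 3288 and to 3190 and 3112. The count of higher genes was 1 without control replicate 2 or DTPA replicate 3 and 3 without DTPA replicate 1.

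Of the 8 Pol II genes, 7 fell and none rose (0 at an unadjusted p under 0.05). Polr2d, the stalk subunit, moved most: the controls were at 81.7, 74.8 and 66.7 TPM and the DTPA libraries at 43.5, 43.7 and 41.4 TPM, for a log2 change of -0.78 ± 0.0739 (adjusted p = 7.54e-05). Polr2a, the largest subunit, was at 166, 162 and 168 TPM in the controls and 121, 128 and 133 TPM under DTPA (-0.38 ± 0.0453, adjusted p = 2.63e-04). Polr2b, its partner at the active site, was at 74.5, 74 and 80.3 TPM against 58.6, 56.6 and 57.2 TPM (-0.40 ± 0.0467, adjusted p = 2.2e-04). In each of these the groups lay apart, and every DTPA library was below every control. The assembly subunits Polr2c and Polr2j fell to 68.9% and 74.2% of the control mean and the stalk subunit Polr2g to 74.6%. Polr2m, at 184 ± 7.33 TPM (SD, n = 3) in the controls, was at 159 ± 6.07 TPM (-0.20, adjusted p = 0.00682), a call lost under median-of-ratios scaling and quantile normalization.

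The exception was Polr2i, which encodes the small zinc-binding subunit that guards fidelity and stands at the jaw of the enzyme. Its controls were at 76.4, 71.9 and 74 TPM and its DTPA libraries at 75.3, 79.8 and 85.7 TPM, so the groups overlapped. The log2 change was 0.11, with a 95% interval of -0.02 to 0.24 that does not reach the change of Polr2a. It was called higher without DTPA replicate 1 (0.16), under quantile normalization (0.26) and under median-of-ratios scaling (0.21). Exons of Polr2i share 325 bases, 26.8% of their length, with Tbcb on the other strand. Polr2c shares 953 bases (18.1%) with Dok4 and Polr2j 176 bases (15.9%) with Lrwd1 in the same way; the strand setting of the counting is not given, so reads of such partners may not have been told apart.

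Among the shared subunits, 3 of 5 fell. Polr2f was at 28, 28.3 and 24.9 TPM in the controls and 14, 14.4 and 14.7 TPM under DTPA, for a log2 change of -0.87 ± 0.0644 (adjusted p = 2.09e-05), the furthest down of the 28 genes. Polr2e fell to 81.1% of the control mean (-0.30, adjusted p = 0.00684, not past the threshold under quantile normalization). Polr2k was at 16.9, 14.3 and 17 TPM in the controls and 6.21, 9.18 and 12.9 TPM under DTPA, for a log2 change of -0.76 ± 0.217 (adjusted p = 0.0189). It rested on 27 to 64 estimated reads per library, and the call was lost without control replicate 3 (adjusted p = 0.0582) and without a filter on low values (adjusted p = 0.0592). A processed pseudogene copy, Polr2k-ps, was listed at 0 to 3.76 TPM in the controls and 0.84 to 4.92 TPM under DTPA. Summed with it, the values were 20.6, 14.3 and 18 TPM against 11.1, 10 and 16.1 TPM, and the groups overlapped. Polr2h and Polr2l did not pass, with log2 changes of 0.18 and -0.18, and neither did Polr1c (-0.09) or Polr1d (-0.12), which turned to 0.06 and 0.03 under quantile normalization. Without DTPA replicate 2, Polr2l (-0.27, adjusted p = 0.0332) and Polr1c (-0.15, adjusted p = 0.0476) were called lower.

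In Pol I, the low levels that differentiation had left differed again with DTPA. Polr1b was at 5.72, 5.94 and 5.10 TPM in the controls and 3.04, 2.73 and 3.38 TPM under DTPA, for a log2 change of -0.70 ± 0.108 (adjusted p = 9.59e-04). Polr1a was at 3.76, 2.92 and 3.40 TPM in the controls and 4.27, 4.96 and 5.10 TPM under DTPA, for a log2 change of 0.41 ± 0.117 (adjusted p = 0.0189). Neither gene's groups overlapped, but Polr1a lost its call without control replicate 2, DTPA replicate 2 or DTPA replicate 3 and without a filter on low values, with adjusted p up to 0.0676. Between 202 and 435 estimated reads stood behind Polr1a and between 108 and 202 behind Polr1b in these libraries. Polr1e, at 2.79 ± 0.522 TPM under DTPA, did not pass (-0.12).

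The ratio of the 2 catalytic subunits within a library needs no scaling between libraries. It is given as a description, because it was chosen after the values of its genes were seen and restates them. Exact permutation tests gave p = 0.1, 0.7 and 0.1 for Pol I, II and III, where 0.1 is the smallest p possible. Because of that choice, nothing is concluded from them. Polr1a over Polr1b was 0.811 at 0 h, 0.657, 0.492 and 0.667 in the controls and 1.4, 1.82 and 1.51 under DTPA. Polr3a over Polr3b was 1.11 at 0 h, 1.44, 1.35 and 1.37 in the controls and 1.01, 0.972 and 1 under DTPA. Polr2a over Polr2b, at 2.17 ± 0.0712 (SD, n = 3) in the controls and 2.21 ± 0.136 under DTPA, overlapped between the groups.

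**Figure D3:**
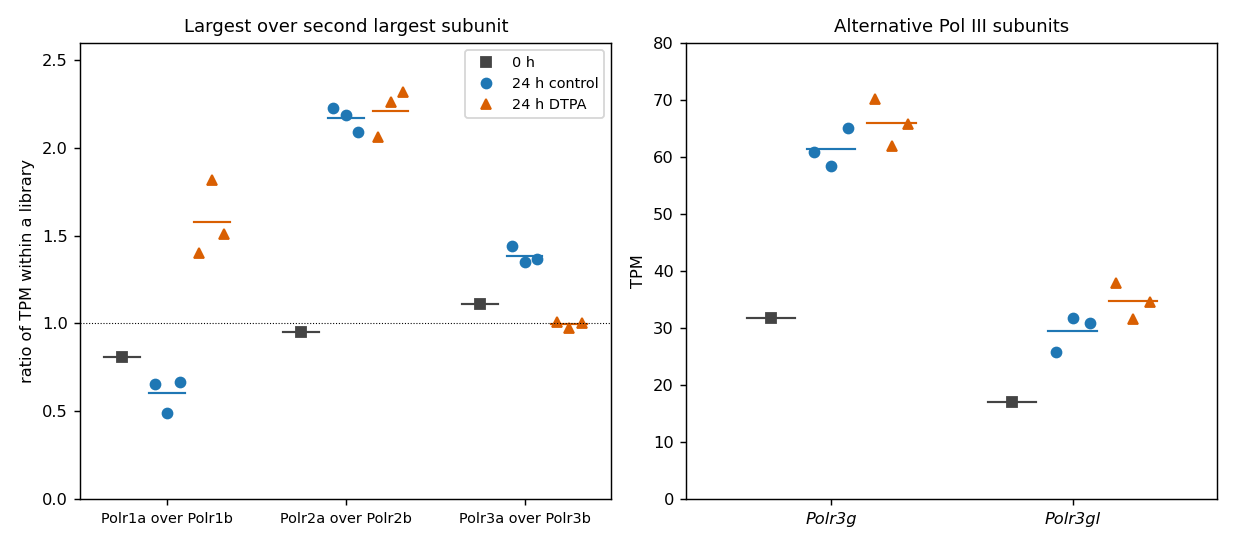
Left, the ratio of TPM of the largest over the second largest subunit within each library for Pol I, II and III; right, TPM of Polr3g and Polr3gl in each library; squares are 0 h, circles controls, triangles DTPA, and bars group means. Polr1a over Polr1b is 1.4 or more in all DTPA libraries and 0.667 or less in all controls, and Polr3g lies above Polr3gl in every library.

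Of the 10 Pol III genes, 4 fell and 1 rose under DTPA. Polr3b, the second largest subunit, rose from 14.1, 13.5 and 15.6 TPM to 19.3, 19.6 and 19.3 TPM, for a log2 change of 0.41 ± 0.066 (adjusted p = 0.00122) that kept its call under all 17 alternatives. Polr3a, the largest, stayed within the control range, at 19.4, 19.1 and 19.4 TPM against 20.4, 18.2 and 21.4 TPM, with a log2 change of -0.05 that turned to 0.05 and 0.09 under median-of-ratios scaling and quantile normalization. Polr3k, the zinc-binding subunit that cleaves RNA and acts in termination, fell from 33.1, 34.5 and 33.1 TPM to 22.6, 19.4 and 20.6 TPM (-0.66 ± 0.0646, adjusted p = 8.51e-05). Within the initiation trimer Polr3c and Polr3f fell to 69.4% and 68.7% of the control mean, with log2 changes of -0.52 and -0.47 (adjusted p = 5.21e-05 and 0.00243), and the groups lay apart in both. Polr3d fell to 71.1% (-0.44, adjusted p = 0.00124).

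The alternative trimer subunits did not pass. Polr3g was at 60.8, 58.4 and 65 TPM in the controls and 70.1, 61.9 and 65.7 TPM under DTPA (0.10, adjusted p = 0.201), and Polr3gl at 25.8, 31.7 and 30.9 TPM against 37.9, 31.5 and 34.5 TPM (0.23, adjusted p = 0.0734). Both were called higher under median-of-ratios scaling and quantile normalization, and Polr3gl also after rescaling without globin genes and without DTPA replicate 2. The share of Polr3g in the pair was 67.6 ± 2.7% (SD, n = 3) in the controls and 65.6 ± 0.666% under DTPA, a difference of -2.06 percentage points (exact permutation test, two-sided, p = 0.4). Polr3e, already at 3.83 TPM in the controls, was at 3.34 TPM (-0.15, adjusted p = 0.235, groups apart), with a 95% interval that reached down to -0.39.

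Since several subunits bind zinc, the genes were also read by that property, as known from structures of the enzymes and their yeast counterparts: Polr1a, Polr1b, Polr2a, Polr2b, Polr2c, Polr2i, Polr2k, Polr2l, Polr3a, Polr3b and Polr3k. Of these 11, 6 fell, 2 rose and 3 did not pass under DTPA, with a median log2 change of -0.38. Of the other 17, 9 fell, none rose and 8 did not pass, with a median of -0.20; 1 of these genes, Polr3gl, was higher before adjustment for the number of genes. The lower genes were 54.5% of the zinc-binding group and 52.9% of the others, beside 36.4% of all tested genes. Both genes called higher, Polr1a and Polr3b, were in the zinc-binding group, or 18.2% of it, beside 21.7% of all tested genes. Polr1a lost its call under 4 alternatives. Under median-of-ratios scaling and quantile normalization, Polr2i within the group and Polr3g and Polr3gl outside it were also called higher. The lowest log2 changes of the 28 genes, -0.87 for Polr2f and -0.78 for Polr2d, were outside it, followed by Polr2k (-0.76), Polr1b (-0.70) and Polr3k (-0.66) within it. Log2 changes ran from -0.76 to 0.41 in the zinc-binding group and from -0.87 to 0.23 outside it. The difference between the groups of genes was not tested.

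**Figure D4:**
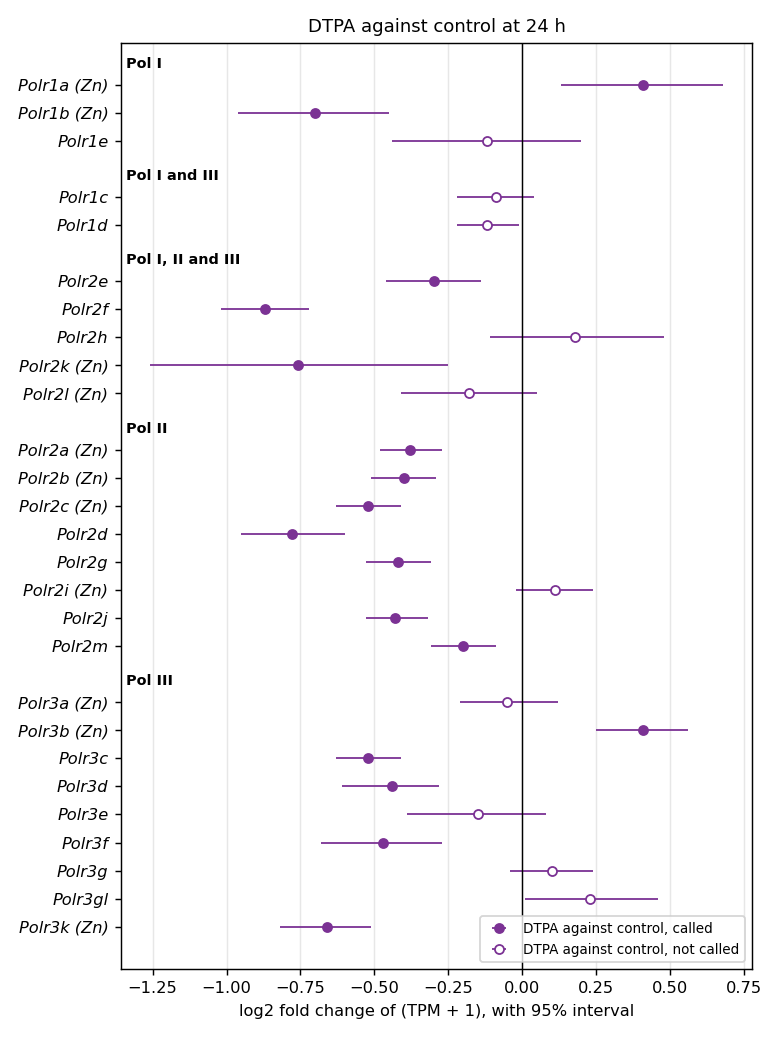
Log2 changes of log2(TPM + 1) under DTPA against control at 24 h, with 95% intervals from limma over 3 against 3 libraries; filled circles pass adjusted p under 0.05 and (Zn) marks subunits known to bind zinc. Pol II genes other than Polr2i lie left of 0, and Polr1a and Polr3b are the filled circles right of 0.

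DTPA libraries were also set against the 0 h library, which both 24 h comparisons share. Of the 28 genes, 16 were lower and 1, Polr3g, higher (limma, adjusted p under 0.05 and a log2 change of at least 1 in size), where 27.6% of 12016 tested genes were lower and 15.7% higher, 43.3% in all. Without the minimum fold, 25 were lower and 2 higher, where the rule called 46.6% and 29.9% of all genes. Median-of-ratios scaling and quantile normalization each called 13 lower and 2 higher, with splits of all calls of 2397 to 2680 and 2586 to 2611 in place of 1888 to 3318. Polr3g lost that call without DTPA replicate 1 (0.98) and with a pseudocount of 5. Polr1b was at 4.02% of its 0 h level under DTPA and 7.36% in the controls, Polr2d at 23.8% and 41.3%, Polr2f at 23.6% and 44.4%, and Polr3k at 37.6% and 60.5%. Polr2a was at 80.4% under DTPA and 104% in the controls, and Polr3b at 63.4% against 47.1%. Summed over the 28 genes, the level was 2571 TPM at 0 h, 1484 to 1498 TPM in the controls and 1198 to 1236 TPM under DTPA. The Pol I genes summed to 166 TPM, then 11.7 to 12.7 TPM, then 10 to 11 TPM, and the Pol II genes to 1347, then 910.2 to 926.9, then 704 to 728 TPM.

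Subunits that the tables list under other symbols moved with differentiation in part as the 28 genes did. Cd3eap, the partner of Polr1e in Pol I, was at 103 TPM at 0 h and 13.2, 11.4 and 12.6 TPM in the controls (log2 change -2.95, adjusted p = 4.86e-06). It rose under DTPA to 15.5, 15.8 and 18.1 TPM (0.38, adjusted p = 0.00572). Twistnb, a Pol I stalk subunit, fell to 34.3% of the 0 h level (-1.45), while Znrd1, the Pol I cleavage subunit, was at 81.7% (-0.29, adjusted p = 0.0459). Crcp, a Pol III stalk subunit, was at 151% (0.59, adjusted p = 1.63e-04). The single-subunit mitochondrial polymerase gene Polrmt fell to 20% (-2.19, adjusted p = 4.84e-05). Between DTPA and control none of these 4 passed, although Polrmt (0.27, adjusted p = 0.0669) was called higher without DTPA replicate 1 (0.37), under quantile normalization (0.37) and under median-of-ratios scaling (0.36).

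The factors that work with the polymerases were read from 5 lists, beside the shares of all genes called: 24.3% lower and 15.1% higher with differentiation, 36.4% lower and 21.7% higher under DTPA. Of 7 Pol I initiation factors, 2 fell with differentiation (28.6%) and 3 under DTPA (42.9%), or 2 with 1 higher under both median-of-ratios scaling and quantile normalization. Ubtf, which binds the ribosomal RNA genes, fell from 174 TPM at 0 h to 64.9 ± 1.15 TPM in the controls and 26.1 ± 0.461 TPM under DTPA (log2 changes -1.41 and -1.28, adjusted p = 3.86e-07 for DTPA). Taf1d of the promoter selectivity complex fell over differentiation, with a log2 change of -1.34. Rrn3, which brings Pol I to the promoter, fell under DTPA from 192 ± 13.2 to 144 ± 1.22 TPM (-0.42), while Taf1b (-0.26, adjusted p = 0.0426) had overlapping groups. Of 11 factors that assemble polymerases, 6 fell with differentiation (54.5%), and 7 fell (63.6%) and 2 rose (18.2%) under DTPA, a split of 4 lower and 3 higher under both scalings. The chaperone ATPase genes Ruvbl1 and Ruvbl2 went from 261 and 454 TPM at 0 h to 44.7 and 44.5 TPM in the controls, and Ruvbl1 and Rpap3 fell further under DTPA, by 0.75 and 0.68 on the log2 scale. Rpap2 rose under DTPA from 9.63 ± 0.278 to 13.8 ± 1.48 TPM (0.47).

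Of 16 Pol III initiation factors with the repressor Maf1, 3 fell (18.8%) and 1 rose (6.25%) with differentiation, and 7 fell (43.8%) and 2 rose (12.5%) under DTPA. The 7 became 4 under median-of-ratios scaling and 2 under quantile normalization. Gtf3a, needed for the small ribosomal RNA genes, and Snapc4, needed for small nuclear RNA genes, fell over differentiation, with log2 changes of -2.47 and -2.40, and Brf1, a subunit of the initiation factor TFIIIB, rose from 21.7 to 53.3 ± 2.31 TPM (1.26). Maf1, which represses Pol III, rose under DTPA from 112 ± 5.83 to 148 ± 9.58 TPM (0.40, adjusted p = 8.41e-04), against 65 TPM at 0 h. Gtf3c2 and Gtf3c3, subunits of the factor that recognises transfer RNA genes, fell under DTPA by 0.44 and 0.34. Of 18 Pol II general factors, 5 fell (27.8%) and 2 rose (11.1%) with differentiation, and 11 fell (61.1%) and none rose under DTPA (0 at an unadjusted p under 0.05). Under the same scalings 9 and 8 were lower and 1 was higher. Gtf2h4, of the helicase factor TFIIH, fell in both, to 12.2 ± 0.382 and then 5.89 ± 0.473 TPM from 35.1 TPM, and Gtf2b rose with differentiation from 37.2 to 161 ± 1.69 TPM (2.08). Of 20 pausing and elongation factors, 2 fell (10%) and 1 rose (5%) with differentiation, and 11 fell (55%) and 3 rose (15%) under DTPA, or 9 and 4 under median-of-ratios scaling and 7 and 5 under quantile normalization. Tcea1, a zinc protein that helps stalled Pol II restart, fell under DTPA from 90.1 ± 3.72 to 52 ± 4.18 TPM (-0.78). Cdk9, the kinase that releases paused Pol II, rose from 34.4 ± 1.4 to 53.4 ± 3.37 TPM (0.62). Median log2 changes under DTPA were -0.06, -0.28, -0.14, -0.27 and -0.22 for the Pol I, assembly, Pol III, Pol II general and elongation lists, beside -0.09 for all tested genes. Under median-of-ratios scaling they were 0.04, -0.18, -0.05, -0.17 and -0.12, and under quantile normalization 0.09, -0.13, -0.03, -0.13 and -0.09, so the sign of the Pol I list turned; the median of all genes was then 0 and 0.01, and that of the 28 subunit genes -0.15 and -0.14.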

How the data were processed

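Polyadenylated RNA was sequenced from stranded TruSeq libraries, per the labels' protocols. The submitters' processing notes name Trimmomatic 0.33, FastQC, HISAT2 2.1.0, featureCounts, edgeR and build mm10; the annotation release, strand setting, gene lengths and treatment of reads with several matches are not given in the sources used here. Values were deposited as TPM, scaled by the authors to the same total in each library, so genes that rise lower the values of others. Values of 114 symbols on more than 1 row were summed; none of the 28 genes was among them.

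Reads were estimated from low TPM values and exon lengths in GENCODE M21 (GRCm38), where 99.01% to 99.39% of low values fell within 0.1 of a whole read; these depths cover counting only. The 3 comparisons were fitted across all genes with limma 3.58.1 (R 4.3.3), which used log2(TPM + 1), a variance trend, two-sided tests and Benjamini-Hochberg adjustment over all tested genes at 0.05. Fold changes on that scale understate those of low genes. DTPA against control used 6 libraries and genes at 1 TPM or more in at least 3; comparisons with 0 h used 7 libraries and genes with a mean of 1 TPM in either group, and a call there also needed a log2 fold change of 1. The code was checked on simulated data. The text names the 28 genes other than 1 that is not reported here but is counted in totals, the subunits under other symbols, and up to 4 called genes with the largest change of each list of partner factors. Members and lists were chosen with earlier results of these data known. The labels call replicates biological without saying how cultures were kept apart, so p-values measure the spread between these libraries. Alternatives were other pseudocounts, filters and scalings, no variance trend, each library left out, a replicate block and, against 0 h, no minimum fold. No protein sequences were used here.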

Additional observations from a re-analysis of the deposited data

How the results depend on the processing

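Over the 28 genes, 447 of 473 values for DTPA against control, 420 of 448 for control against 0 h and 421 of 448 for DTPA against 0 h kept their direction and their side of the threshold. The number of genes higher under DTPA than in the controls was 1 with a 5 TPM filter and likewise with none, 5 under median-of-ratios scaling and under quantile normalization, and 1 to 3 when any library was left out; genes lower numbered 14 to 17 then. Against 0 h, the controls had 1 higher gene under median-of-ratios scaling and 2 under quantile normalization; when any library was left out, none was higher (limma; 2 at an unadjusted p under 0.05 with all libraries) and 12 to 13 were lower. Without the minimum fold, 2 were higher and 21 lower, with 3675 and 5188 of all genes. For DTPA against 0 h, genes higher numbered 2 with a pseudocount of 0.1, after rescaling without globin genes and under quantile normalization or median-of-ratios scaling, 0 with a pseudocount of 5 (limma), and 0 to 2 when any library was left out. Without the minimum fold they were 2 higher and 25 lower, with 3598 and 5594 of all genes. The cause of these shifts was not tested, except that dropping the minimum fold by its construction adds calls. The 5 TPM filter also left Polr1a, Polr1e and Polr3e untested for DTPA against control, so Polr1a could not be called there. The difference in the Polr3g share ran from -3.45 to -0.755 percentage points when any library was left out. All genes called then numbered 1918 to 2312 higher and 3653 to 3909 lower for DTPA against control, 1766 to 1813 and 2864 to 2892 for control against 0 h, and 1866 to 1914 and 3304 to 3344 for DTPA against 0 h, where 16 to 17 of the 28 were lower.

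Signs turned only for genes that had not passed. For DTPA against control, median-of-ratios scaling gave 0.01 for Polr1c, 0.05 for Polr3a and 0.05 for Crcp; quantile normalization gave 0.06, 0.09 and 0.11 for these, 0.03 for Polr1d and 0.01 for Znrd1; Polr3a ran from -0.11 to 0 when any library was left out. For control against 0 h, median-of-ratios scaling gave 0.09 for Polr2c, 0.13 for Polr2k and 0.08 for Polr3c, quantile normalization 0.07 for Polr2c and 0.27 for Polr2k, and rescaling without globin genes 0.03 for Polr2k. Leaving out single libraries gave -0.06 to 0.05 for Polr2k, above 0 without control replicate 2, and -0.01 to 0.07 for Polr2g, below 0 without control replicate 3. With the replicate number as a block, 2274 genes were higher and 3888 lower under DTPA, and 2 and 15 of the 28. Deviations of same-numbered libraries correlated at -0.01 to 0.02, so no effect shared by same-numbered libraries was seen. The labels do not say whether those cultures were kept together. Depth limits Polr2k most, at 27 to 64 estimated reads.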
